A study of Sus scrofa with 75 samples.

Results

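The proximal tubule is the first stretch of the nephron, the kidney's filtering unit, and takes back most of the phosphate, bicarbonate, organic acid and protein that passes the filter. Its brush border, facing the urine, carries the phosphate carriers SLC34A1 and SLC34A3, the lactate carrier SLC5A12, the giant endocytic receptors LRP2 (megalin) and CUBN (cubilin), and the peptidase GGT1 (gamma-glutamyl transferase). The bicarbonate carrier SLC4A4 sits in the opposite, blood-facing membrane, and TMIGD1 is a small adhesion protein of the same epithelium.

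These 8 proximal tubule reabsorption genes were looked up by gene name in the transcriptome annotation built for the study and followed through 5 organs of pigs. Of the 8, 7 were found by name, among 35798 genes with short-read values. GGT1 has no entry by that name. The unnamed gene ENSSSCG00000010056 covers 100% of the RefSeq GGT1 locus, so its values are given as those of the GGT1 locus and stay out of every count of the 7.

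Total RNA came from 5 organs (kidney, heart, spleen, liver and lung) of adult male pigs aged 12 months, in pig groups coded BS and DSE. The labels do not say what either code stands for, and numbered samples are taken here as separate pigs. Short-read (Illumina, ribosomal RNA depleted) libraries came from 4 BS and 4 DSE pigs in each organ, 40 in all, with levels in TPM (reads per transcript length, scaled to the same total in every library). Full-length (PacBio) reads came from 1 library for each pig group and organ, so they carry no replicates within a group. The depth of the short-read libraries is unknown, because TPM does not keep it, and the full-length libraries held 119623 to 456783 reads. No 2 libraries of a group were identical (60 pairs, Pearson r of log2 levels 0.945 to 0.989).

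In Sscrofa11.1 coordinates, as the files give them, SLC34A1 (ENSSSCG00000037535) lies on chromosome 2 at 80548231 to 80567683 on the minus strand, and SLC5A12 (ENSSSCG00000013338) on chromosome 2 at 33561008 to 33613551 on the plus strand. TMIGD1 (ENSSSCG00000017798) lies on chromosome 12 at 46411944 to 46430007 (minus), and LRP2 (ENSSSCG00000040746) on chromosome 15 at 75565300 to 75716694 (minus). The LRP2 model covers 79.97% of the RefSeq locus. CUBN (ENSSSCG00000011030) lies on chromosome 10 at 43102943 to 43414758 (minus), with a U2 small nuclear RNA gene inside it on the other strand. SLC4A4 (ENSSSCG00000008943) lies on chromosome 8 at 67706874 to 68177215 (plus), and SLC34A3 (ENSSSCG00000040105) on an unplaced scaffold at 672185 to 677518 (minus). The GGT1 locus lies on chromosome 14 at 49609689 to 49655206 (plus). It overlaps GGT5 on the same strand and LRRC75B on the other, so reads there may be shared between genes.

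All 7 genes found by name were highest in kidney, and in the other organs 5 of them averaged under 1 TPM. A gene was called kidney-enriched when its kidney level was at least 4-fold above every other organ with an adjusted p of at most 0.05 in each pairwise limma fit on log2(TPM + 1). All 7 were, as were 422 of the 13553 genes tested (3.11%). Where a gene is near 0 elsewhere, the fold on this scale understates the difference.

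Among the phosphate carriers, SLC34A1, the main renal phosphate carrier, averaged 890 ± 319 TPM in kidney (SD, n = 8), from 404 through a median of 893 to 1483. In spleen, its next organ, it averaged 0.111 TPM, and the log2 difference was 9.59 ± 0.21 (SE, adjusted p = 9.99e-17). SLC34A3, the second renal phosphate carrier, averaged 121 ± 47.3 TPM (SD, n = 8), from 86.4 to 225, and 0.242 TPM in lung. Its log2 difference was 6.54 ± 0.15 (SE, adjusted p = 4.44e-16). In every kidney library SLC34A1 stood above SLC34A3 in TPM, which is a level per length.

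SLC5A12, which couples sodium to lactate, averaged 513 ± 309 TPM in kidney (SD, n = 8) and ranged from 115 to 1005, with 0.0515 TPM in liver. Its log2 difference was 8.63 ± 0.29 (SE, adjusted p = 3.87e-14). TMIGD1 averaged 653 ± 318 TPM (SD, n = 8), from 263 to 1170, with a log2 difference of 9.03 ± 0.23 over heart (SE, adjusted p = 4.28e-16). Both genes spread widely between kidneys, and both were near 0 in the other organs.

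The receptors LRP2 and CUBN work together in taking up filtered protein. LRP2 averaged 395 ± 152 TPM in kidney (SD, n = 8) and CUBN 163 ± 80.4 TPM (SD, n = 8). The log2 difference from the next organ was 6.45 ± 0.17 for LRP2 (SE, adjusted p = 1.36e-15) and 6.97 ± 0.27 for CUBN (SE, adjusted p = 3.41e-13). LRP2 alone of the pair reached 1 TPM in another organ: spleen averaged 3.46 ± 1.68 TPM (SD, n = 8), with every spleen library above 1 TPM. LRP2 in spleen exceeded LRP2 in lung by 1.73 ± 0.16 on the log2 scale (SE, adjusted p = 5.45e-08), while CUBN in spleen averaged 0.133 TPM.

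In kidney SLC4A4 stood at 210 ± 106 TPM (SD, n = 8), and of the 7 it alone averaged above 1 TPM in all 5 organs. Liver followed at 8.82 ± 2.32 TPM, lung at 4.41 ± 1.82, spleen at 2.55 ± 0.49 and heart at 1.33 ± 0.41 (SD, n = 8 each). Each neighbour in that order differed from the next in the pairwise limma fits. Over the 7 genes, 11 neighbouring pairs of organs reached 1 TPM on either side, and all 11 differed, against 9 with median-ratio scaling and 10 with TPM rescaled without the mitochondrial genome. For each gene, the pair of kidney with its next organ was already part of the kidney-enriched call. The pairs beyond those were spleen with lung for LRP2 and the SLC4A4 pairs outside kidney. Differences between 2 organs are common here. Kidney differed from heart in 87.4% of genes, from liver in 87.5%, from lung in 79.8% and from spleen in 80.9%. Of the other neighbours used here, liver and lung differed in 91.7% of genes, liver and spleen in 90.6%, heart and spleen in 89.7%, and lung and spleen in 58.5%.

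The GGT1 locus averaged 159 ± 55.0 TPM in kidney (SD, n = 8), from 119 to 288. Lung followed at 7.81 ± 2.30 TPM, liver at 6.19 ± 4.40, spleen at 4.58 ± 1.89 and heart at 0.634 ± 0.310 (SD, n = 8 each). Lung and liver were close to the threshold (adjusted p = 0.0497), and liver and spleen did not differ beyond their spread (adjusted p = 0.204). The kidney excess over lung was 4.17 ± 0.14 on the log2 scale (SE, adjusted p = 7.63e-14).

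**Figure D1:**
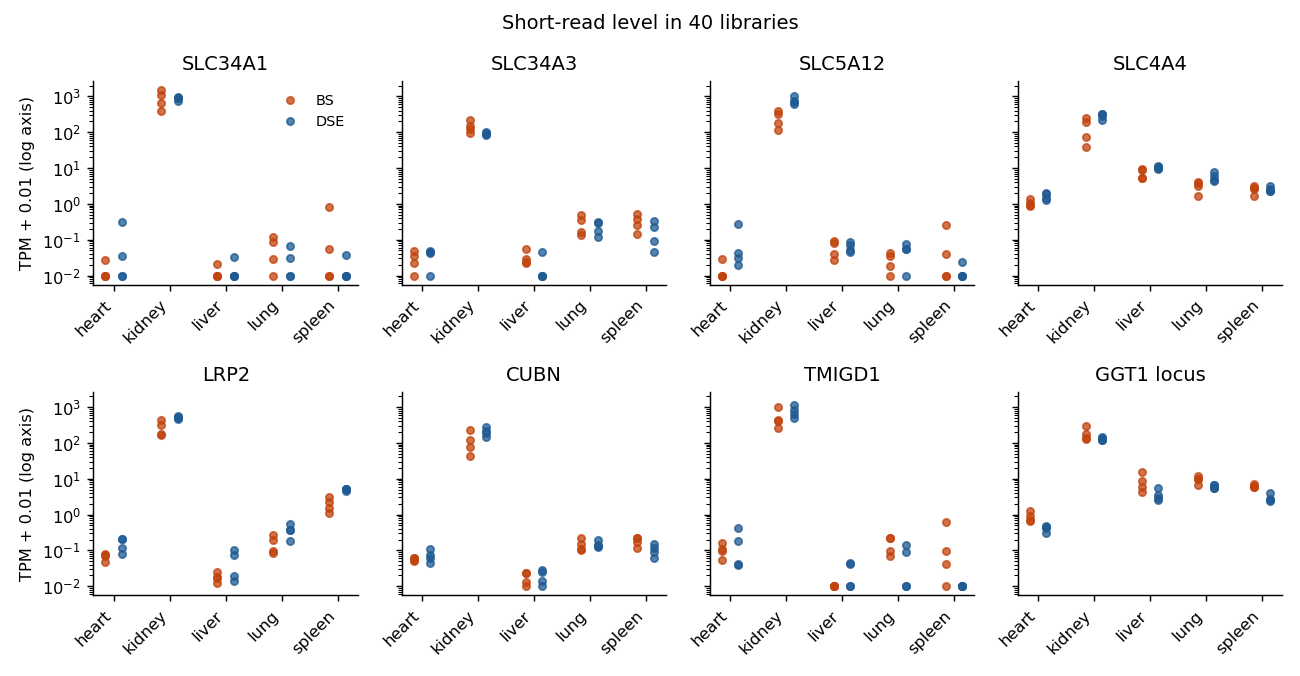
TPM + 0.01 on a log axis for each of the 7 genes found by name and the GGT1 locus, in 5 organs; each point is 1 pig, BS in orange and DSE in blue. All kidney points lie above every other organ's points, LRP2 rises again in spleen, and SLC4A4 and the GGT1 locus stay above the floor in every organ.

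Outside kidney the highest SLC34A1 levels were in 3 libraries. The spleen library of BS pig 3 held SLC34A1 at 0.813 TPM, beside 1.5 TPM of UMOD, the uromodulin gene of the thick ascending limb. The heart library of DSE pig 1 held SLC34A1 at 0.294 TPM beside UMOD at 0.911 TPM. The lung library of BS pig 3 held 0.111 and 0.569 TPM of the same pair. In the liver libraries SLC34A1 reached at most 0.0222 TPM. Whether the member levels in these 3 libraries came from carried-over kidney RNA was not tested.

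The full-length reads held the same members in kidney. SLC34A1 had 2819 reads in the 2 kidney libraries and 0 in the 8 libraries of other organs. SLC34A3 had 90 kidney reads, SLC5A12 102 and TMIGD1 143, also with 0 elsewhere. SLC4A4 had 1225 kidney reads and 47 elsewhere, and the GGT1 locus 497 and 16. For genes at 0 elsewhere the fold is a lower bound, taken against 3 reads in the library of the other organ. In the BS pigs SLC34A1 was at least 112-fold higher in kidney than in any other organ, and in the DSE pigs at least 441-fold. The bounds of SLC34A3, SLC5A12 and TMIGD1 ran from 3.75-fold (SLC5A12, BS) to 16.9-fold (SLC5A12, DSE). LRP2, also at 0 elsewhere, had no more than 3 reads in kidney, so no fold is given.

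With edgeR, 5 of the 7 were kidney-enriched in full-length reads, beside 128 of 4110 genes tested (3.11%). LRP2 and CUBN did not pass the filter on low counts. CUBN had 114 kidney reads and 2 in lung, and LRP2 had 2 reads in all against 395 TPM in short reads. Their longest annotated transcripts, 15208 nt for LRP2 and 11468 nt for CUBN, are the longest of the 8. DESeq2 kept 2 of the 5 calls, SLC34A3 and SLC4A4. Counting only reads on annotated transcripts kept 3, SLC34A1, SLC34A3 and SLC4A4. Long-read transcripts that the annotation does not list held 2471 of the 2819 SLC34A1 reads, 100 of the 102 SLC5A12 reads and all 143 TMIGD1 reads, assigned here through their long-read locus.

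Between pig groups in kidney, 2 of the 7 differed, SLC5A12 and LRP2, and both were lower in BS. That is a share near the background: 33.6% of all 13820 genes tested in kidney differed in either direction, and 14.5% were lower in BS. The median log2 difference (BS minus DSE) of the 7 was -0.99, against -0.02 over all genes tested. Nothing particular to the 7 is read from these counts.

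For SLC5A12, the 4 BS kidneys held 115, 183, 385 and 330 TPM and the 4 DSE kidneys 1005, 695, 766 and 626. The groups did not overlap, which 37.4% of genes in kidney did not either. SLC5A12 was lower in BS by a log2 difference of -1.74 ± 0.36 (SE, limma, adjusted p = 0.00911), and it passed in every fit that left out 1 pig.

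For LRP2, the BS kidneys held 168, 183, 442 and 321 TPM and the DSE kidneys 516, 497, 555 and 476, again without overlap. The log2 difference was -0.99 ± 0.29 (SE, limma, adjusted p = 0.0298). Leaving out BS pig 1 or 2, or any single DSE pig, ended the LRP2 call (adjusted p from 0.0552 to 0.0765), and so did dropping the filter on low values (adjusted p = 0.0692).

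The other members did not pass. SLC4A4 held 39.8, 72.0, 242 and 192 TPM in BS and 326, 278, 316 and 215 in DSE (log2 difference -1.37 ± 0.51, SE, limma, adjusted p = 0.0648). CUBN held 43.2, 76.5, 223 and 124 TPM in BS and 217, 195, 281 and 146 in DSE (log2 difference -1.05 ± 0.44, SE, limma, adjusted p = 0.0918). In both genes BS pig 3 lay among the DSE pigs. Without BS pig 3, 5 of the 7 passed, adding SLC4A4 (adjusted p = 0.0189), CUBN (adjusted p = 0.0149) and TMIGD1 (adjusted p = 0.0268). Without BS pig 4, SLC4A4 passed as well (adjusted p = 0.045).

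TMIGD1 held 263, 406, 1006 and 434 TPM in BS and 1170, 647, 816 and 486 in DSE (log2 difference -0.67 ± 0.40, SE, limma, adjusted p = 0.211). SLC34A1 held 404, 653, 1483 and 1110 TPM in BS, with the DSE pigs between them at 880, 749, 937 and 905 (log2 difference -0.09, limma, adjusted p = 0.850). The 95% interval of the SLC34A1 difference, -0.89 to 0.71, leaves room for a change of either sign. The other phosphate carrier, SLC34A3, held 120, 96.2, 225 and 153 TPM in BS and 93.4, 90.1, 86.4 and 102 in DSE (log2 difference 0.60, limma, adjusted p = 0.0726). Without BS pig 2, SLC34A3 passed, higher in BS (log2 difference 0.78, limma, adjusted p = 0.0359). The GGT1 locus held 141, 133, 288 and 176 TPM in BS and 139, 119, 151 and 124 in DSE (log2 difference 0.40, limma, adjusted p = 0.195).

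**Figure D2:**
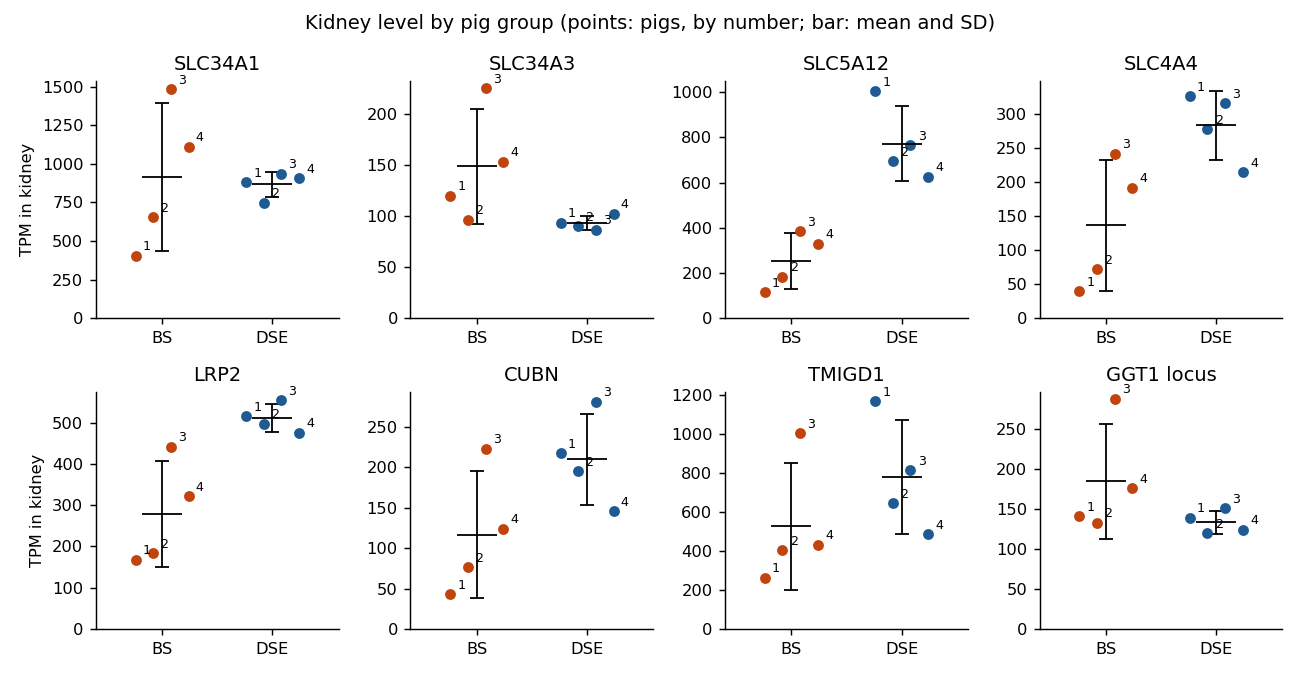
TPM in kidney for the 4 BS and 4 DSE pigs, each point 1 pig marked with its number, with the mean and SD as bars; each panel has its own axis from 0. SLC5A12 and LRP2 are the panels whose groups do not overlap, and the BS points have the larger SD in every panel except SLC5A12.

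Sums of markers of other nephron segments also differed between the kidney libraries. The summed TPM of 4 thick ascending limb genes was 6770, 7479, 3347 and 6441 in BS and 2817 to 3419 in DSE. Most of that sum was UMOD, the 1 gene of the 4 that passed between pig groups (log2 difference 0.91, limma, adjusted p = 0.0216), while SLC12A1 (0.22), KCNJ1 (0.31) and CLDN16 (-0.21) did not. The sum of 5 collecting duct principal cell genes was 778 and 854 in BS pigs 1 and 2, and 275 to 371 in the other 6 kidneys. Most of it was AQP2 and AQP3, which did not pass between pig groups, while AVPR2 was higher in BS (1.43, limma, adjusted p = 0.0338) and SCNN1G lower (-0.70, limma, adjusted p = 0.0116). The sum of 4 genes of intercalated cells, the other cell type of the collecting duct, was 442 and 429 in BS pigs 1 and 2, 647 and 641 in BS pigs 3 and 4, and 442 to 474 in DSE. The sum of 4 distal convoluted tubule genes was 474, 465, 391 and 398 in BS and 462 to 581 in DSE. The 5 podocyte genes summed to 233, 149, 129 and 165 in BS and to 125 to 187 in DSE. BS pig 2 had 459 TPM over 2 medulla genes, nearly all of it AKR1B1, against 16.2 to 40.4 in the other kidneys. The 7 members summed to 1152, 1670, 4005 and 2664 TPM in BS pigs 1 to 4, and to 2957 to 4208 in DSE. No marker of the thick ascending limb, principal cell, intercalated cell and medulla lists was at 0 in any kidney. The sum of 3 injured tubule genes was 46.1, 84.9, 25.1 and 38.0 in BS and 19.3 to 34.2 in DSE. None of its genes tested passed between pig groups (LCN2 1.14, limma, adjusted p = 0.124). BS pig 2 was also highest for the endothelium (158) and leukocyte (19.4) sums, with BS pig 1 within the range of the other kidneys. The 2 kidneys with the lowest member sums, BS pigs 1 and 2, were thus those with the highest principal cell and injured tubule sums. Neither had the highest intercalated cell or distal convoluted tubule sum. The part of this in the differences between pig groups was not tested, and in bulk tissue fewer cells of a type and less RNA per cell cannot be told apart.

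**Figure D3:**
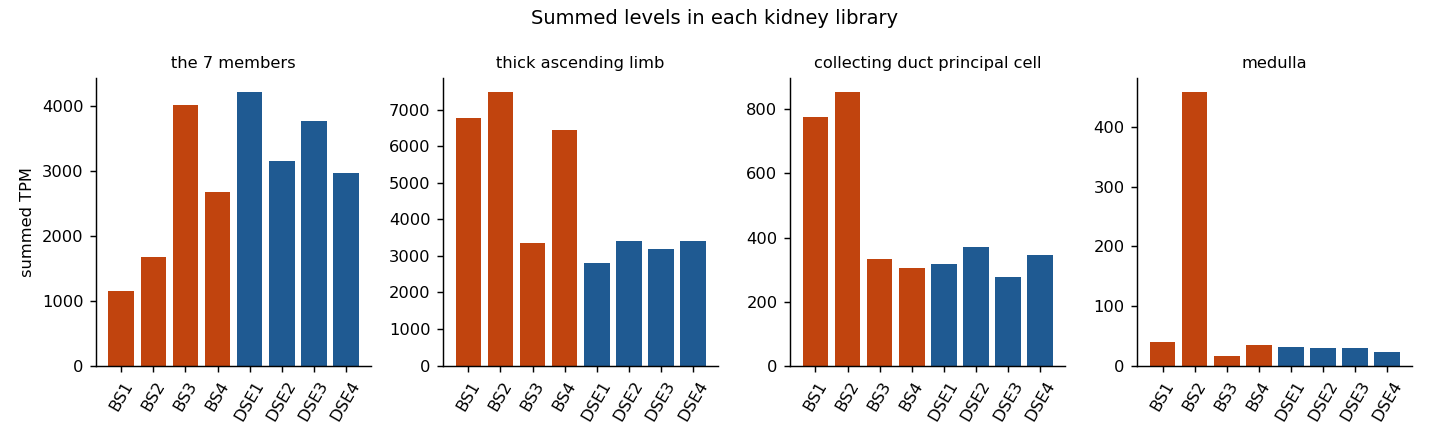
Summed TPM in each kidney library (bars, BS orange, DSE blue) for the 7 members and for markers of the thick ascending limb, the collecting duct principal cell and the medulla; each panel has its own axis from 0. BS1 and BS2 are lowest for the members and highest for the principal cell sum, and BS2 alone is high for the medulla sum of 2 genes.

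Setting one member over another in the same library shows how the members stood to each other. This view was chosen after the values were seen, and is given as a description with no test, with SLC34A1 as the base because its kidney mean was the highest. Of the 21 ratios among the 7, 13 had BS and DSE kidneys that did not overlap (61.9%), against 22.7% of all 88831 ratios between kidney-enriched genes. The ratios share genes, so they are not separate observations. Every one of the 13 held SLC34A1, SLC34A3 or SLC5A12, and all ratios among TMIGD1, LRP2, CUBN and SLC4A4 overlapped. The background takes in kidney-enriched genes whatever their cell type, so no excess of the 7 is read from these shares. SLC5A12 over SLC34A1 was 0.285, 0.280, 0.260 and 0.297 in the BS kidneys and 1.14, 0.927, 0.818 and 0.691 in the DSE kidneys. The BS value hardly moved although SLC34A1 itself ranged from 404 to 1483 TPM there.

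LRP2 over SLC34A1 ran from 0.281 to 0.414 in BS and from 0.526 to 0.663 in DSE. CUBN over SLC34A1 ran from 0.107 to 0.150 in BS and from 0.161 to 0.300 in DSE, and SLC4A4 over SLC34A1 from 0.0983 to 0.173 and from 0.237 to 0.371. SLC34A3 went the other way, at 0.138 to 0.296 in BS and 0.0922 to 0.120 in DSE. Only TMIGD1 of the 7, at 0.391 to 0.678 in BS and 0.537 to 1.33 in DSE, overlapped between the groups in its ratio to SLC34A1. LRP2 over CUBN, the receptor pair, also overlapped, at 1.98 to 3.88 in BS and 1.97 to 3.26 in DSE.

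**Figure D4:**
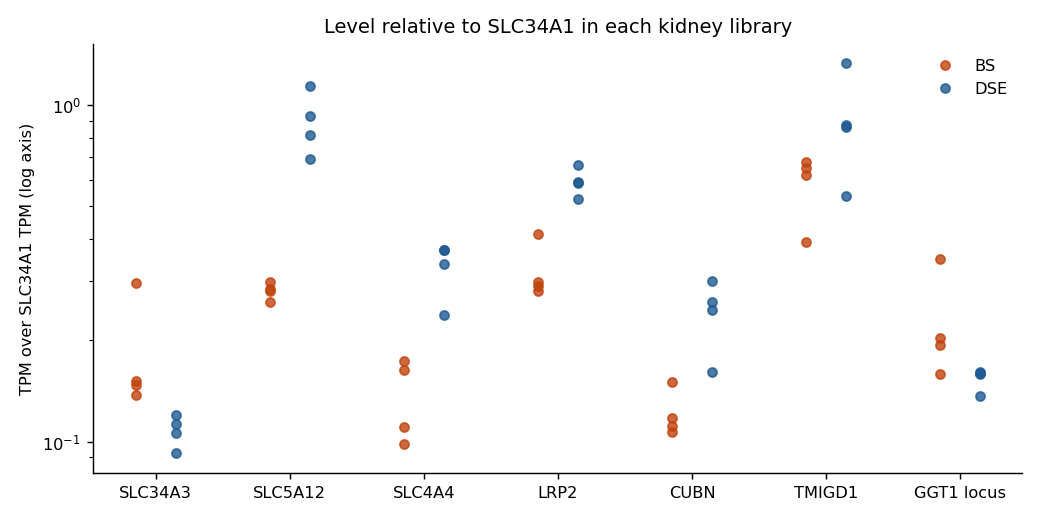
Each member's TPM over that of SLC34A1 in the same kidney library, on a log axis; each point is 1 pig, BS in orange and DSE in blue. SLC5A12, SLC4A4, LRP2 and CUBN sit lower in BS and SLC34A3 higher, with no overlap, while TMIGD1 and the GGT1 locus overlap.

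Outside kidney, 5 comparisons between pig groups could be made for the 7, and 1 passed: LRP2 in spleen, where 27.2% of genes did and 16.5% were lower in BS. The share that differed was 36.6% in heart, 26.9% in liver and 41% in lung. The BS spleens held 1.1, 2.3, 1.5 and 3.0 TPM of LRP2 and the DSE spleens 5.03, 4.59, 5.13 and 5.02. The log2 difference was -1.03 ± 0.20 (SE, limma, adjusted p = 0.00982), in the same direction as in kidney, with no overlap (29.1% of genes in spleen did not overlap).

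SLC4A4 was not called in any of the other organs. In lung its BS values of 4.0, 1.6, 3.2 and 3.9 TPM lay below the DSE values of 6.07, 7.67, 4.58 and 4.25, without overlap, as for 39.8% of genes in lung (log2 difference -0.69, limma, adjusted p = 0.0567). In liver the log2 difference was -0.51 (limma, adjusted p = 0.0723), in heart -0.36 (limma, adjusted p = 0.0633) and in spleen -0.04 (limma, adjusted p = 0.874).

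The GGT1 locus was higher in BS in spleen, at 6.05, 6.15, 7.01 and 5.84 TPM against 2.35, 4.05, 2.47 and 2.74 in DSE (log2 difference 0.91 ± 0.16, SE, limma, adjusted p = 0.00693). It was also higher in BS in lung (log2 difference 0.54 ± 0.17, SE, limma, adjusted p = 0.0345). In liver, the difference of 0.99 did not pass (limma, adjusted p = 0.0586).

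Whether the kidney difference between pig groups departed from that in the other organs was tested on each pig's kidney level minus its mean over the other organs. None of the 7 passed with limma, as 3 of 16905 genes did (0.0177%). The smallest adjusted p of the 7 was that of SLC5A12 (log2 difference -1.72, limma, adjusted p = 0.148), followed by CUBN (log2 difference -1.07, limma, adjusted p = 0.454). For genes near 0 TPM in the other organs, such as SLC5A12, those organs hold too little signal for a comparison. There the test nearly repeats the difference in kidney alone (-1.74 for SLC5A12). For none of the 7 is the difference shown to be particular to kidney.

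In short-read TPM, transcript starts set kidney apart in SLC4A4 and at the GGT1 locus. SLC4A4 is known to have a kidney form and a form of other tissues that begin at different promoters. Starts within 300 nt of each other were joined, a grouping chosen after the values were seen. At 100, 500 and 1000 nt the SLC4A4 groups were the same. The 17 annotated SLC4A4 transcripts fell into 7 start groups. The most downstream group, at 67968035 to 67968072, carried 65.0% ± 2.9 of SLC4A4 TPM in kidney (SD, n = 8), from 61.9% to 71.1%. In liver it carried 1.69% ± 2.47 and in spleen 0.461% ± 0.747 (SD, n = 8 each).

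The start at 67831500, which lies 136535 nt upstream of it, carried 62.5% ± 9.7 of SLC4A4 in liver and 32.3% ± 5.4 in kidney (SD, n = 8 each). The most upstream group, at 67706874 to 67706898, carried 98.1% ± 2.1 in spleen and 93.3% ± 5.2 in lung (SD, n = 8 each). Thus in short-read TPM kidney, liver, and lung with spleen each leaned on another SLC4A4 start. The lung and spleen shares rest on low means of 4.41 and 2.55 TPM. The kidney share of the downstream start was alike in the pig groups, at 61.9% to 71.1% in BS and 63.1% to 64.4% in DSE.

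Each transcript was also tested with limma, as its log2 ratio to the other transcripts of the gene. SLC4A4 was the 1 gene of the 7 with a usage shift of at least 20 points between kidney and another organ. Only genes with at least 5 TPM in both organs could be tested, which left SLC4A4 in liver. PB.11276.18, from the downstream start, took 48.3% ± 8.2 of SLC4A4 in kidney and 1.12% ± 1.99 in liver (SD, n = 8 each, limma, adjusted p = 6.84e-09). PB.11276.1, from the start at 67831500, took 32.3% ± 5.4 and 62.5% ± 9.7 (SD, n = 8 each, limma, adjusted p = 2.6e-05). Among all transcripts tested between kidney and liver, 3.33% shifted that far.

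The full-length reads that matched listed transcripts put the SLC4A4 starts in another proportion. In the kidney libraries 571 reads matched transcripts from the start at 67831500 and 29 those from the downstream start. Another start, at 67872687 to 67872752, had 45 kidney reads, while it carried 1.33% of SLC4A4 TPM in kidney. In liver 24 reads matched the start at 67831500, 5 the start at 67872687 to 67872752 and 0 the downstream start. In lung 11 reads matched the start at 67831500. Among matched full-length reads, the start at 67831500 thus held the most in kidney, liver and lung. The most upstream group holds no long-read transcript, so no full-length read could match it. A further 580 SLC4A4 reads belong to long-read transcripts that the annotation does not list, so their starts are not known here. All of them came from kidney, out of 1225 kidney reads, and they outnumber the 571 at 67831500. The main kidney start by full-length reads is therefore not settled. The 2 kinds of reads were not reconciled.

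The 20 transcripts of the GGT1 locus fell into 6 start groups. The group at 49622097 to 49622166 carried 90.2% ± 17.4 of the TPM in kidney (SD, n = 8), from 48.3% in 1 BS kidney to 99.5%. The start at 49624481, 2384 nt downstream, carried 81.8% ± 3.6 in lung and 75.7% ± 11.7 in liver (SD, n = 8 each), but 0.525% ± 0.392 in kidney. The full-length reads had the same split: 454 kidney reads from the first group with 0 in the other organs, and 2 kidney reads against 11 elsewhere from the second. Joined at 1000 nt, the second group took in 2 more starts and carried 90.9% in lung, 80.6% in liver and 9.18% in kidney.

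At the level of single transcripts, PB.17101.2 took 70.1% ± 16.7 of the GGT1 locus in kidney and 7.92% ± 9.95 in liver (SD, n = 8 each, limma, adjusted p = 5.79e-06), and was listed at 0 in lung. PB.17101.17 took 0.525% in kidney and 75.7% in liver (limma, adjusted p = 6.13e-11). Between kidney and lung 3.83% of transcripts shifted by at least 20 points.

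**Figure D5:**
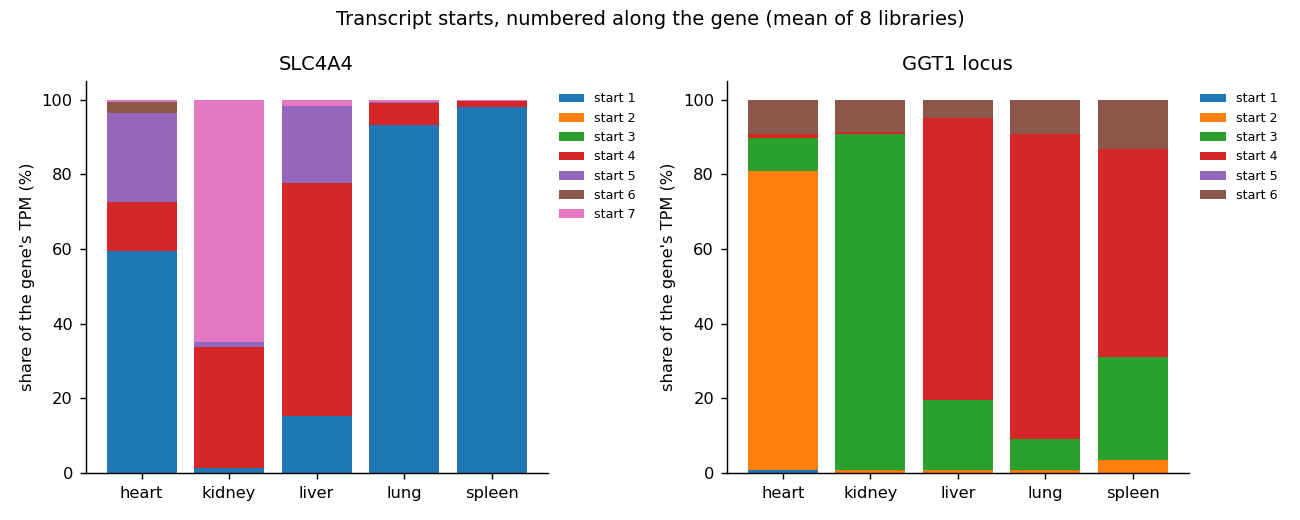
Share of the gene's TPM from each group of transcript starts, numbered in the direction of transcription, as the mean of 8 libraries per organ, for SLC4A4 and the GGT1 locus. In kidney the largest shares are 65.0% from start 7 of SLC4A4 and 90.2% from start 3 of the GGT1 locus, against 1.69% and 18.6% in liver; the heart bars rest on mean levels of 1.33 and 0.634 TPM.

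No transcript of the 7 shifted between BS and DSE in kidney by at least 20 points with an adjusted p of at most 0.05 (limma; 2.88% of 21977 transcripts did). The largest shift was in LRP2, whose 2 transcripts are a long one (ENSSSCT00000061421, 15208 nt) and a short long-read one (PB.18457.2). The short one held 82.0%, 62.7%, 21.1% and 33.5% of LRP2 in the BS kidneys and 14.9%, 14.0%, 10.5% and 27.9% in the DSE kidneys (limma, adjusted p = 0.125). The long transcript held 30.2, 68.4, 348 and 214 TPM in BS and 439, 427, 497 and 343 in DSE, while the short one ranged from 58.1 to 137 TPM over all 8. The low LRP2 totals of BS pigs 1 and 2 thus lay in the long transcript, and RNA quality as a part of this was not tested.

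In the single full-length kidney library of each pig group, counts were scaled to a fixed library total, as CPM. SLC34A1 had 2798 CPM in BS (exact 95% interval 2647 to 2955) and 9165 CPM in DSE (8715 to 9632). SLC5A12 had 94.1 CPM (68.1 to 127) in BS and 351 (267 to 453) in DSE. SLC4A4 ran against its short-read values, with 1028 of 456783 reads in BS and 197 of 168139 in DSE. CUBN did so too, at 234 CPM (192 to 283) in BS and 41.6 (16.7 to 85.8) in DSE. These intervals cover counting error in 2 libraries only, and say nothing of the pig groups.

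Among other genes of the same pathways, in lists that were set with earlier results of these data known, 33 of 77 tested were kidney-enriched. Over all genes tested the share was 3.11%, which also stands beside each list's count below. In kidney 13 of the 77 were higher in BS and 13 higher in DSE, beside 19.2% and 14.5% of all genes. Those shares also stand beside each list's counts between pig groups below. Leaving out BS pig 2 or any single DSE pig took the 26 down to between 10 and 17, and dropping the low-value filter to 13, while 36 passed without BS pig 3.

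Of the phosphate genes, 3 of 7 were kidney-enriched, and 2 were higher in BS: NHERF1, a scaffold that holds SLC34A1 in the brush border (log2 difference 0.47, limma, adjusted p = 0.0136), and the FGF receptor FGFR1 (0.50, limma, adjusted p = 0.0135). SLC34A2, the lung phosphate carrier, averaged 0.0404 TPM in kidney, and SLC20A1 did not pass (0.24, limma, adjusted p = 0.369). Of 9 endocytosis genes, 3 were kidney-enriched and 3 higher in BS. Among them AMN, the membrane anchor of cubilin, held 561 ± 181 TPM in BS and 333 ± 37.5 in DSE (SD, n = 4 each; log2 difference 0.71, limma, adjusted p = 0.0311). AMN thus stood higher in the group where LRP2 was lower and CUBN did not pass. The other 2 were FCGRT, a receptor that salvages albumin and antibodies (0.63, limma, adjusted p = 0.00963), and GIPC1 (0.43, limma, adjusted p = 0.0160). DAB2, an adaptor of megalin, did not pass (log2 difference -0.38, limma, adjusted p = 0.203).

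Of 8 bicarbonate genes tested, 2 were kidney-enriched and 1, the anion exchanger SLC4A2, was higher in BS (log2 difference 0.76, limma, adjusted p = 0.00197). SLC9A3, the brush border sodium-proton exchanger, differed by 0.07 (limma, adjusted p = 0.884), and the carbonic anhydrase CA2 by -0.27 (limma, adjusted p = 0.231). Of 11 sugar and organic acid genes, 7 were kidney-enriched. There the sulphate carrier SLC13A1 (-1.30, limma, adjusted p = 0.0411) and the glucose carrier SLC2A2 (-1.23, limma, adjusted p = 0.0267) were lower in BS, and the glucose carrier SLC2A1 higher (0.90, limma, adjusted p = 0.017). The sodium-glucose carriers did not pass, SLC5A1 at -0.56 (limma, adjusted p = 0.113) and SLC5A2 at 0.21 (limma, adjusted p = 0.619).

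Of 13 amino acid and peptide genes, 6 were kidney-enriched, 3 were lower in BS and 1 higher. SLC3A1, a subunit of the cystine carrier, differed by -1.28 (limma, adjusted p = 0.0483) and SLC7A8 by -1.31 (limma, adjusted p = 0.0196), while the amino acid carrier SLC6A18 differed by 1.22 (limma, adjusted p = 0.0122). CLTRN, which carries amino acid transporters to the surface, differed by -0.81 (limma, adjusted p = 0.0327), and SLC7A9, the partner of SLC3A1, by -0.12 (limma, adjusted p = 0.727). In the glutathione and peptidase list, which had the most genes tested, 6 of 14 were lower in BS and 2 higher. Over all genes 14.5% were lower in BS and 19.2% higher. The brush border peptidases MEP1B (-1.59, limma, adjusted p = 0.00404), MME (-1.45, limma, adjusted p = 0.0208) and ENPEP (-1.22, limma, adjusted p = 0.0345) were lower, as were the glutathione pathway genes GCLM (-0.64, limma, adjusted p = 0.01) and GGCT (-0.61, limma, adjusted p = 0.0277). GGT5, which overlaps the GGT1 locus, was higher in BS (1.19, limma, adjusted p = 0.0204), and so was OPLAH (0.85, limma, adjusted p = 0.00194). GGT6 averaged 0.0271 TPM in kidney and was not tested.

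Of 6 vitamin D genes 3 were kidney-enriched, and CYP2R1, a vitamin D 25-hydroxylase, was lower in BS (-0.71, limma, adjusted p = 0.0248). CYP27B1, which makes active vitamin D, differed by 0.60 (limma, adjusted p = 0.214), and CYP24A1, which breaks it down, by -1.62 (limma, adjusted p = 0.14). Of 9 transcription factors 4 were kidney-enriched. PAX2 (0.63, limma, adjusted p = 0.0398) was higher in BS and HNF4G lower (-1.0, limma, adjusted p = 0.037).

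After each group's mean was subtracted from log2(TPM + 1), Pearson r between 2 of the 7 ran from 0.614 (SLC34A3 with TMIGD1) to 0.977 (SLC5A12 with SLC4A4), as a description over libraries that share tissue make-up and depth. The genes most like each member by this measure, among 6861 with at least 10 TPM in kidney, included SLC13A1 for SLC34A1 (r = 0.997), TMEM98 for SLC34A3 (r = 0.987), SLC25A5 for SLC5A12 (r = 0.995) and SAR1B for TMIGD1 (r = 0.993). KCNJ15 stood closest to LRP2 (r = 0.993), ABAT to CUBN (r = 0.990) and CFL2 to SLC4A4 (r = 0.998). SLC5A2, the main renal glucose carrier, stood closest to the GGT1 locus (r = 0.994).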

How the data were processed

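The TPM values were deposited by the authors. The submitters' processing notes name STAR 2.7.10a, Salmon 1.10.1 and susScr11, without their roles, and rtracklayer 1.58.0 wrote the annotation, per the file headers. Full-length reads were deposited by the authors as counts per long-read transcript: 51.9% lay on annotated transcripts, 35.9% were assigned through a long-read locus with 1 gene, and the rest were left out. Columns whose code matches no label (20 gene, 20 transcript and 5 full-length) were not used, and samples coded DT were not analysed here.

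Genes reaching a mean of 1 TPM in either group were tested on log2(TPM + 1) with limma 3.58.1 (trend, Benjamini-Hochberg over all genes). Organs were fitted pair by pair with pig group as a term, and BS against DSE within an organ, 4 against 4. Transcript usage took transcripts of at least 5% of a gene of at least 5 TPM (pseudocount 0.5). Full-length counts used edgeR 4.0.16 (quasi-likelihood, TMM), with DESeq2 1.42.0 as the alternative, in R 4.3.3. The limma, usage and edgeR tests were tested on simulated data with known changes. Pathway genes were named as the first 2 of a list or as those passing between pig groups, and the gene most like a member by r. Some genes of these lists are counted but not reported by name here. Members and lists were chosen with earlier results of these data known. Nothing says that the numbered samples of a group are separate animals, so p-values measure the spread between these samples, which may be technical. RefSeq loci are from Sscrofa11.1.

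Replicate numbers are taken to mark a pig across organs (deviations of the same number in 2 organs correlated at -0.0742 to 0.471). Between BS and DSE they only share a number.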

Additional observations from a re-analysis of the deposited data

Results flagged for a closer look

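In 120 groups of 4 libraries, 9 had 1 library far from the other 3. The rule flags about 1 in 20 groups of separate, normally spread values. Many of these groups are ratios that share genes, so the 9 are not weighed against that rate. Among kidney marker sums, medulla genes stood at 458.6 TPM in BS pig 2 (nearest 40.4) and at 22.5 in DSE pig 4 (nearest 29.9). Hepatocyte genes stood at 23.72 TPM (nearest 6.08) and alveolar type II genes at 2.029 TPM (nearest 0.397) in the kidney of DSE pig 1.

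Among ratios between members in kidney, SLC34A1 over TMIGD1 stood at 2.56 in BS pig 4 and SLC34A1 over the GGT1 locus at 7.307 in DSE pig 4. SLC34A3 over CUBN stood at 2.765 in BS pig 1. SLC5A12 over LRP2 was 1.946 in DSE pig 1, and CUBN over SLC4A4 was 0.8902 in DSE pig 3.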

How the results depend on the processing

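The kidney enrichment of the 7 in short reads held under every alternative run. The count of the 7 that differ between BS and DSE in kidney, 2, was 1 without a low-value filter and ran from 1 to 5 when 1 pig was left out. The pathway count of 26 was 13 without the filter, 15 with the replicate number as a block, and 10 to 36 when 1 pig was left out. The count outside kidney, 1, was 3 with median-ratio scaling, 2 without the mitochondrial genome, 2 with no trend, and 1 to 3 when 1 pig was left out. In full-length reads the count of 5 was 2 with DESeq2 and 3 on annotated transcripts only, and 5 to 6 when 1 library was left out. The replicate number did not pair BS with DSE kidneys (r -0.101 to 0.082, 0 of 4 over 0.1), and the block changed no call of a member in kidney. The causes were not tested. Short-read depth is unknown, and the 2 full-length reads of LRP2 are too few for a comparison.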
